A study of Mus musculus with 11 samples.

Results

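The Ugt1a genes and their neighbour Mroh2a lie side by side on mouse chromosome 1, and 10 genes are described here of 21883 protein-coding genes. In order along the chromosome they are Ugt1a10, Ugt1a9, Ugt1a8, Ugt1a7c, Ugt1a6b, Ugt1a6a, Ugt1a5, Ugt1a2, Ugt1a1 and Mroh2a. They were selected on the peak calls themselves, because each had a peak near a gene end in every Foxc1 mutant library and in no control library, and ranked highest among such genes. The contrast between mutant and control at this locus is therefore a description, and no test of it is given. All peaks between 87900001 and 88500000 on chromosome 1 (mm10), a window of 600 kb, were taken from each list.

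The peaks come from CUT&RUN, in which an antibody tethers a nuclease that releases DNA near a chosen protein, here Myc-tagged retinoic acid receptor alpha (RARα) in cortical progenitors of E14 mouse embryos. Prom1, a membrane protein found on neural progenitors, had served to enrich the cells, which were permeabilised with 0.05% digitonin. Of 11 libraries in the series, the 6 with the Myc tag antibody were used, 3 labelled control and 3 labelled Foxc1 Mutant. The 5 isotype libraries were not analysed here, so whether they also hold peaks at this locus was not tested. The Foxc1 allele, the origin of the tagged receptor and any pooling of embryos were not given in the sources used here. All 6 libraries target the tagged receptor. Peak lists hold no expression, so the identity of the cells could not be checked against markers.

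UDP-glucuronosyltransferases attach glucuronic acid to small lipophilic molecules so that they can be excreted. The Ugt1a locus is built from a row of alternative first exons, each with its own promoter, that are spliced to a common set of downstream exons. Ugt1a1 makes the enzyme that conjugates bilirubin, and Ugt1a6a one that conjugates planar phenols. These genes are best known from liver, gut and kidney, where receptors for foreign compounds induce them. Retinoic acid receptors bind DNA as partners of RXR at paired copies of a short half-site.

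The lists differed in length, from 11869 peaks in control replicate 2 and 30273 in control replicate 3 to 86446 in control replicate 1, 54112 in mutant replicate 1, 410562 in mutant replicate 2 and 513290 in mutant replicate 3. The comparisons of gene calls therefore used, for each library, its top 11869 peaks by total signal, called the equal-length lists. These hold every peak of control replicate 2, faint ones included, but only the strongest peaks of the longer lists. Equal length therefore does not make the peaks of the libraries alike in strength. Heights are given in steps, the unit of which the max signals of a library are whole multiples. The signal of 1 step differs between libraries, so heights are set against the same library's other peaks. The median height on chromosome 1 was 10, 2 and 2 steps in control replicates 1, 2 and 3 and 4 steps in every mutant library.

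The mutant libraries shared a single raised stretch of about 100 kb that began at the last of the Ugt1a promoters and ran past Mroh2a, while the control libraries held no peak in it. In the equal-length lists, peaks no more than 25 kb apart formed a stretch from 88212733 to 88307473 in mutant replicate 1 (94.7 kb, 17 peaks), from 88210965 to 88310924 in mutant replicate 2 (99.96 kb, 16 peaks) and from 88211162 to 88310887 in mutant replicate 3 (99.7 kb, 19 peaks). The mean width was 98.1 ± 2.95 kb (SD, n = 3). It depended on the rule: with gaps of at most 10 kb the stretch of mutant replicate 1 was 47.5 kb wide, and full-list peaks of at least 4 steps gave a mean of 232.0 kb. The edges of mutant replicates 2 and 3 lay 197 bp apart on the left and 37 bp apart on the right. In mutant replicate 1 the stretch began 1768 bp later and ended 3451 bp earlier than in mutant replicate 2, and its full list held further peaks up to 88310478. By the same rule the longest run of peaks in the window was a single peak of 4.70 kb in control replicate 1 and of 0.453 kb in control replicate 3, both to the left of this stretch, and control replicate 2 had no peak in the window.

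**Figure D1:**
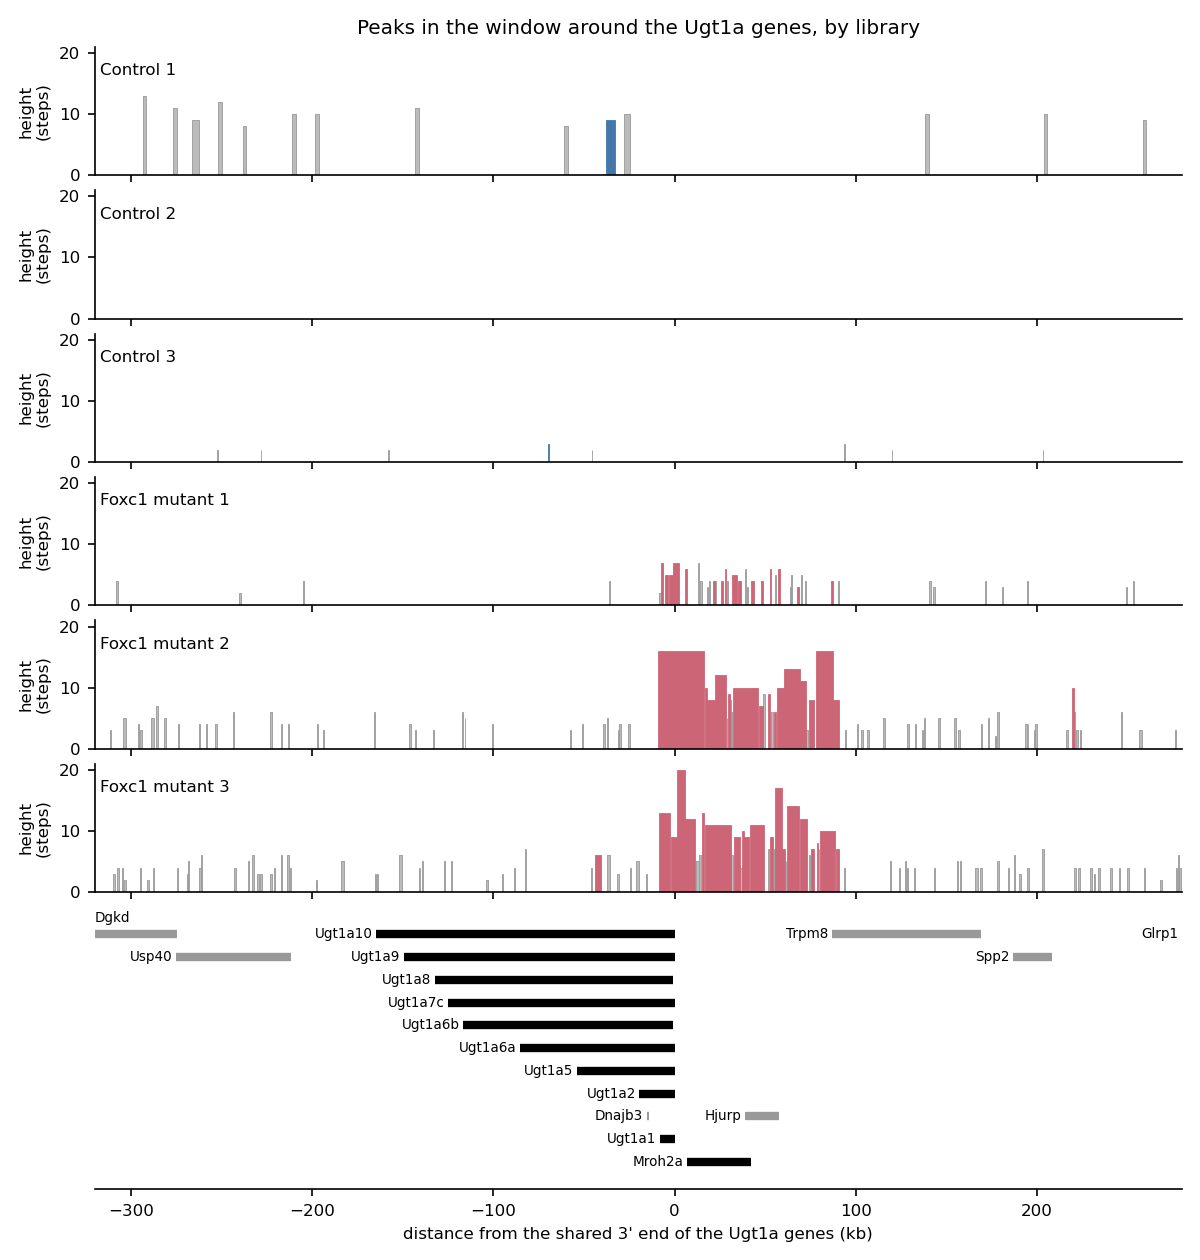
Peaks in the window of 600 kb in each library. The x axis is the distance in kb from the shared 3' end of the Ugt1a genes and the y axis the height of each peak in steps of that library. Coloured bars belong to the equal-length lists (blue control, red mutant) and grey bars to the full lists only, with the described genes in black and other genes in grey below. The red bars of all 3 mutant libraries stand over the same stretch, to the right of most Ugt1a genes, where no control library has a bar.

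At the resolution of peaks, both edges were sharp in mutant replicates 2 and 3, and the left edge in mutant replicate 1. The outer edges are the ends of a chain of peaks in mutant replicate 2. Lower cover just outside them is thus partly built into the rule. In the 10 kb to the left of the outer edge at 88210965, 0%, 0% and 7.76% of the bases lay under peaks of the full lists in mutant replicates 1, 2 and 3, against 78.8%, 100% and 94.3% in the 10 kb to its right. At the other edge, 17.4%, 98.8% and 98.7% of the last 10 kb inside was covered, against 0%, 11.99% and 6.37% of the next 10 kb outside. Mutant replicate 1 thus thinned out towards the right end, and the other mutant libraries did not. In bins of 5 kb, the 19 bins inside the stretch were covered at 53.5% to 100% in mutant replicate 2 and at 55.1% to 100% in mutant replicate 3. In mutant replicate 1 they ranged from 0% to 96.3% with a median of 27.5%, and 2 of the 19 were empty. All 19 were empty in every control library.

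**Figure D2:**
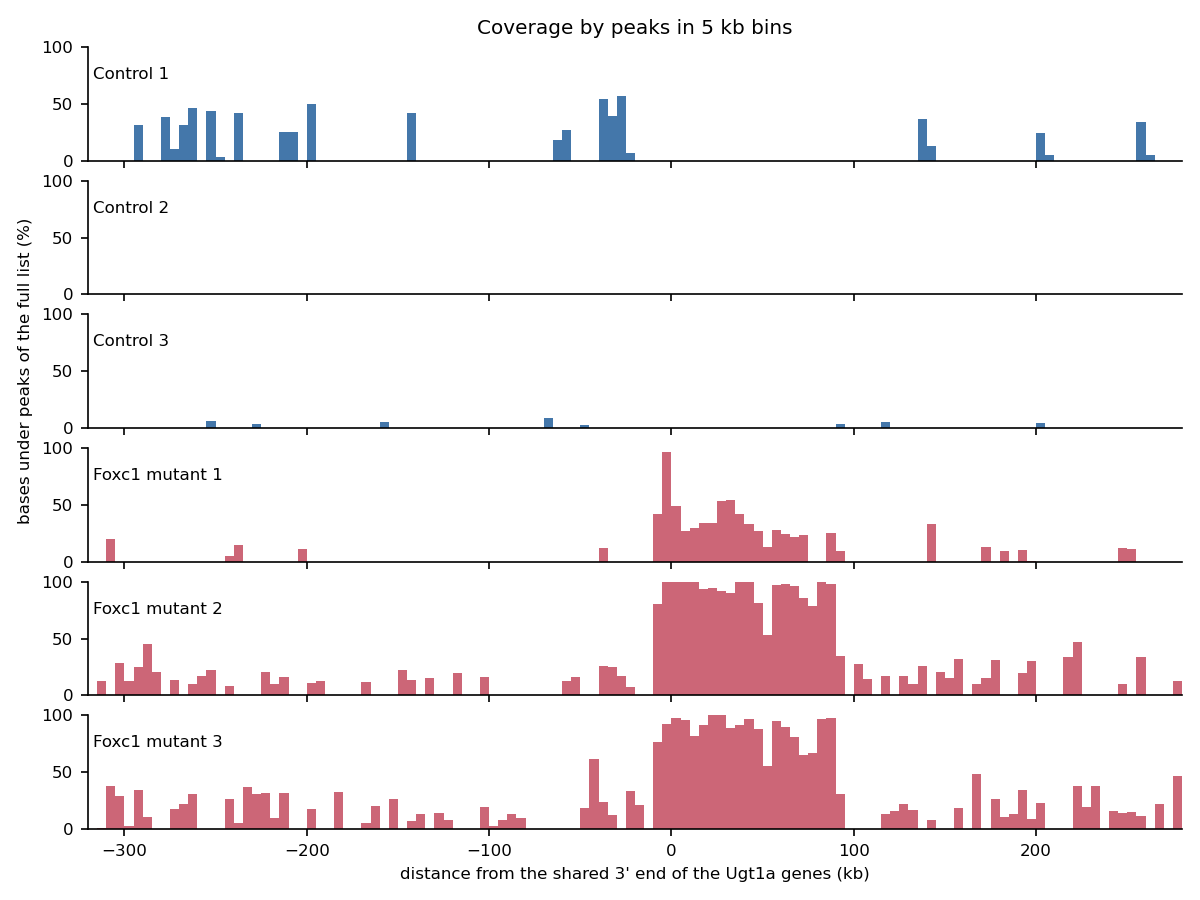
Percent of each 5 kb bin under peaks of the full lists, by library, against the distance in kb from the shared 3' end of the Ugt1a genes. Each bar is 1 bin. Bins inside the stretch reach a median of 97.4% in mutant replicate 2 and 91.8% in mutant replicate 3, against medians of 0% and 8.28% outside it, and are empty in the 3 control libraries.

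The left edge fell inside the Ugt1a locus and left out nearly all of it. The locus spans 164.6 kb from the start of Ugt1a10 to the common end at 88220002, and the stretch holds its last 9038 bp, or 5.49%. It began 994 bp before the annotated start of Ugt1a1 in mutant replicate 2 and 797 bp before it in mutant replicate 3, and 774 bp after it in the equal-length list of mutant replicate 1. Across the remaining 94.5% of the locus, peaks of the full lists covered 0.391%, 6.11% and 9.93% in mutant replicates 1, 2 and 3 and 7.89%, 0% and 0.554% in control replicates 1, 2 and 3. The groups overlapped there, and the tallest peaks were 4, 6 and 7 steps high in the mutant libraries and 11 and 3 steps in control replicates 1 and 3.

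Counted by gene ends, the 9 Ugt1a calls came down to the common 3' end and the Ugt1a1 promoter. All 10 genes were called in the 3 mutant and in no control equal-length list, as the selection required, against 0.178% of all protein-coding genes. The 9 Ugt1a genes have 9 separate 5' ends, but 7 of them end at 88220002 and the other 2, Ugt1a8 and Ugt1a6b, at 88218998, which was counted as 1 shared end. Of the 9 Ugt1a 5' ends, 8 had no peak within 5 kb in any equal-length list, and Ugt1a1 had one in every mutant library. With both ends of Mroh2a, 4 of 12 distinct gene ends were called in all 3 mutant and no control library. These calls were not separate peaks throughout. In mutant replicate 2 a single peak of 25390 bp made the calls at the Ugt1a1 start, the shared end and the Mroh2a start.

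At the shared 3' end, mutant replicates 1, 2 and 3 had tallest peaks of 7, 16 and 20 steps. No control list, even the full one, held a peak within 5 kb of it. At the 5' end of Ugt1a1 the values were 7, 16 and 13 steps. The nearest control peak to that start was 16638 bp away in control replicate 1, 37555 bp in control replicate 3 and 506011 bp in control replicate 2. Mroh2a, a member of the maestro heat-like repeat family, had peaks of 7, 16 and 20 steps at its 5' end and of 6, 10 and 11 steps at its 3' end in the full lists of mutant replicates 1, 2 and 3, and none in any control list. Its 5' values belong to the same peaks as those at the shared 3' end, 6.989 kb away, because the windows overlap. The peaks over the Mroh2a promoter itself were 6, 16 and 12 steps high. Every mutant library was thus called at these 4 ends.

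The other Ugt1a promoters carried scattered peaks in the full lists, mostly in the longest lists. Mutant replicate 1 had none within 5 kb of the 5' ends of Ugt1a10, Ugt1a9, Ugt1a8, Ugt1a7c, Ugt1a6b, Ugt1a6a, Ugt1a5 or Ugt1a2. Ugt1a10 had 6 and 3 steps, Ugt1a9 4 and 6 steps and Ugt1a8 3 and 5 steps in mutant replicates 2 and 3. Ugt1a6b (6 steps) and Ugt1a5 (4 steps) had a peak in mutant replicate 2 but not 3, and Ugt1a7c (5 steps), Ugt1a6a (7 steps) and Ugt1a2 (5 steps) in replicate 3 but not 2. At Ugt1a5, control replicate 1 also showed a peak, of 8 steps, below that library's median. Because of this peak, 9 instead of 10 genes were called in all 3 mutant and no control library in the full lists, where 8.02% of all genes were.

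**Figure D3:**
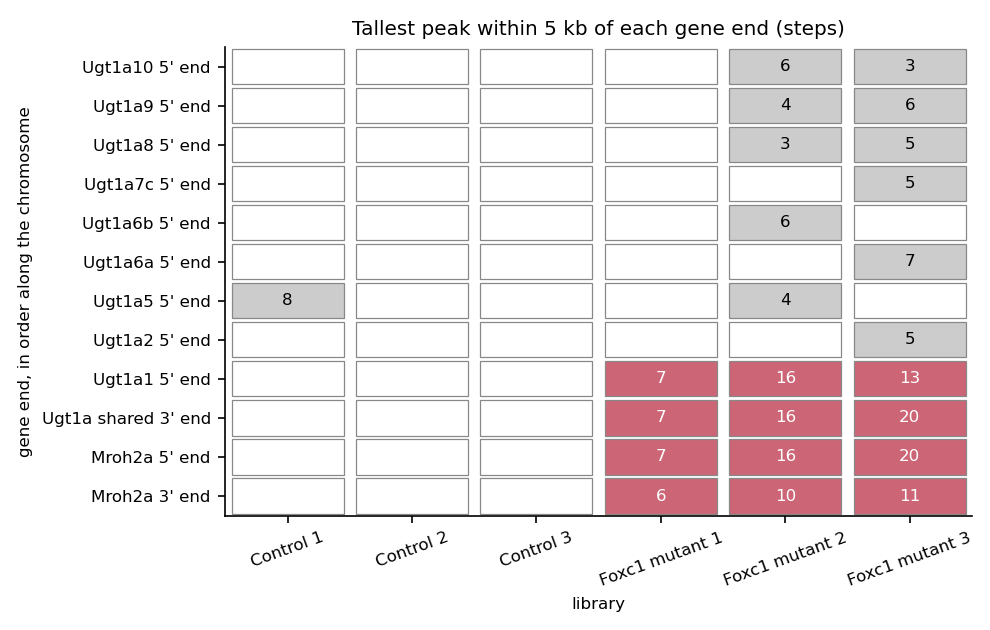
Height in steps of the tallest peak within 5 kb of each of the 12 distinct gene ends (rows, in order along the chromosome) in each library (columns). The height is that in the full lists. In red cells the equal-length list has a peak too, in grey cells it has none, and white cells have no peak in either list. Red fills the 4 lowest rows in the mutant libraries and is seen nowhere else.

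The number of called genes depended on how a call was made. With 1 kb around gene ends it was 10, but with 25 kb it was 6 and over whole gene spans 3, because single peaks of control replicates 1 and 3 to the left of the stretch then fell within reach. When 50% of a peak had to lie in the window it was 1, as the 25390 bp peak of mutant replicate 2 cannot meet this in a window of 10 kb. Leaving out the 1% of peaks with the highest max signal made it 0.

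The sequences before 3 gene starts in and beside the stretch, and before Ugt1a7c, are shown because they place the left edge among the promoters and show which of them hold half-sites for retinoic acid receptors. They are from RefSeq (GRCm38.p6, the assembly of mm10), plus strand, and end 1 base before the annotated gene start. Capitals mark half-sites, which were searched on both strands. The letters searched were AGGTCA, the consensus of these receptors, and as its variants the hexamer GGGTCA, the hexamer AGTTCA and the hexamer GGTTCA. Ugt1a7c (chr1:88094751-88095000) and Ugt1a2 (chr1:88200361-88200610) lie left of the stretch, and Ugt1a1 (chr1:88211709-88211958) and Mroh2a (chr1:88226770-88226990) lie in it.
Ugt1a7c: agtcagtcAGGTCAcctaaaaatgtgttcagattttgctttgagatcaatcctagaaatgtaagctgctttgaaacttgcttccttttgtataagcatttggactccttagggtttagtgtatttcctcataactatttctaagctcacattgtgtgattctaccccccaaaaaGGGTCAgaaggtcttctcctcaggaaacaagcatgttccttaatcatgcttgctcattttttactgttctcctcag
Ugt1a2: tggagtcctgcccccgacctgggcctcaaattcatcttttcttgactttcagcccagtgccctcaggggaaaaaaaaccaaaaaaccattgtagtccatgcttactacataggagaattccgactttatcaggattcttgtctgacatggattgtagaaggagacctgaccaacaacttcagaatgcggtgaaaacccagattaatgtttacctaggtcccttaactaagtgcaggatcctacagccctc
Ugt1a1: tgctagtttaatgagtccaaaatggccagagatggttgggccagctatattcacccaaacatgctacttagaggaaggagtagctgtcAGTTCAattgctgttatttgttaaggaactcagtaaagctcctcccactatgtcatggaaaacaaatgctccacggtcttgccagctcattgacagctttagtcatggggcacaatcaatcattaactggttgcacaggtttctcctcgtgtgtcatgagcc
Mroh2a: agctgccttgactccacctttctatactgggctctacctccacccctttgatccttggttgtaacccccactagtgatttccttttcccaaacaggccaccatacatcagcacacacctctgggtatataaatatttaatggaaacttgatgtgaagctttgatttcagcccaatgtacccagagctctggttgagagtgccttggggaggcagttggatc

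Of the 10 genes, 9 have a promoter in the RefSeq table, and Ugt1a6b is the remaining gene. The 250 bases of the Ugt1a1 promoter lay wholly under a peak in each mutant library, of 2, 16 and 13 steps in replicates 1, 2 and 3. The promoter of Mroh2a was covered at 92.4%, 100% and 100%, by peaks of 6, 16 and 12 steps. Ugt1a10 was covered at 73.6% by a peak of 3 steps in mutant replicate 3 alone, the other 6 promoters had no peak over them in any mutant library, and none of the 9 had one in a control library. Half-sites were found in 4 of the 9 promoters: 2 in Ugt1a7c and 1 each in Ugt1a1, Ugt1a8 and Ugt1a9. Of 32851 promoters in the table, 38.6% held at least 1. A direct repeat of these half-sites with a spacer of 1, 2 or 5 bases was found in 0 of the 9 and in 0.426% of all promoters. Of the 2 promoters covered in all mutant libraries, Ugt1a1 held a single half-site and Mroh2a none, while the 3 other promoters with half-sites had no peak over them. A match of letters is a description only.

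Beyond the Ugt1a locus the stretch ran over Mroh2a, Hjurp and the beginning of Trpm8, between genes as well as within them. From the Ugt1a1 start to the shared 3' end, 77.6%, 100% and 95.4% of the bases lay under peaks of the full lists in mutant replicates 1, 2 and 3. The 6.99 kb between this end and Mroh2a were covered at 54.0%, 100% and 95.7%, and they hold the tallest peak that mutant replicate 3 had in the stretch, from 88221189 to 88225484. Over Mroh2a the cover was 36.1%, 95.6% and 93.0%. Over the part of Hjurp beyond it, a gene for a chaperone of centromeric histone, it was 27.8%, 77.9% and 80.7%. The 29.1 kb between Hjurp and Trpm8, with no protein-coding gene, were covered at 14.8%, 92.9% and 82.4%.

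Mutant replicates 2 and 3 thus covered most of every segment, and mutant replicate 1 had the lowest cover in each. Hjurp and Trpm8, which encodes a cold-sensing ion channel, were also called in all 3 mutant and no control equal-length list, at 6, 13 and 17 steps and at 4, 16 and 10 steps, just below the rank at which the 10 genes had been taken. The first 4.19 kb of Trpm8 were covered at 29.5%, 97.2% and 96.8%, and the other 77.9 kb of this gene at 2.14%, 12.6% and 8.98%. The remaining protein-coding genes that touch the window were called in no equal-length list. These were Dgkd, Usp40 and Dnajb3 to the left and Spp2 and Glrp1 to the right.

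Compared with its surroundings, the stretch stood out by cover in all mutant libraries and by mean signal under peaks in replicates 2 and 3. In the part common to the 3 mutant libraries (88212733 to 88307473), full lists covered 33.5%, 92.6% and 88.1% in mutant replicates 1, 2 and 3, against a mean of 1.79%, 9.83% and 10.996% in equally wide flanks outside the outer edges. The cover was thus 18.7, 9.42 and 8.01 times that of the flanks. The mean signal per covered base was 1.09, 2.04 and 1.77 times that of the flanks. Mutant replicate 1 thus had more peaks in the stretch (30, against 1 and 4 in the flanks) at nearly the same mean signal. Its tallest peak was 7 steps high in the stretch and 4 steps in each flank, where few peaks lay. The median peak height was 4 steps in the stretch and 4 and 3.5 steps in the flanks. The tallest peaks in the stretch, of 7, 16 and 20 steps, were 1.75, 4 and 5 times the median of chromosome 1. On the log2 scale this is 1.71 ± 0.80 (SD, n = 3). The 99th percentile of heights on the chromosome was 7, 8 and 8 steps, so the tallest peak of mutant replicate 1 stood at that level and those of replicates 2 and 3 above it.

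By total signal, the strongest peak of the whole list lay in the stretch in mutant replicates 2 and 3, and in mutant replicate 1 the peak of rank 10. They were 25390, 14453 and 3284 bp wide. The first 2 were also the widest peaks of their lists. Among the 100 peaks of highest total signal in the genome, 2, 9 and 11 lay in the stretch in mutant replicates 1, 2 and 3.

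No other window of this width on chromosome 1 was covered as much in a mutant library. The locus was chosen, and the edges of the stretch were set, on peaks of these same lists. The other windows were not fitted to peaks, so the rank of the stretch among them is a description and not independent evidence. The 19209 windows of 94.7 kb elsewhere on the chromosome, placed every 10 kb and thus overlapping, had a median cover of 1.35%, 13.5% and 17.4% and a maximum of 9.03%, 40.6% and 44.4% in mutant replicates 1, 2 and 3. Across all 21 standard chromosomes, 265931 windows held 0 with as much cover in mutant replicate 2 or 3. In mutant replicate 1 there were 9, all at a single locus on chromosome 13 between 12790617 and 12965357. A raised cover at that locus was common to the 3 mutant libraries: its window from 12840617 to 12935357 was covered at 46.5%, 90.9% and 81.9% in mutant replicates 1, 2 and 3 and at 0% in every control library. The stretch beside Ugt1a1 was thus not the only region of this kind in the genome. In the window of 600 kb the cover by full lists was 6.81%, 23.2% and 24.96% in mutant replicates 1, 2 and 3 and 5.92%, 0% and 0.332% in control replicates 1, 2 and 3. Elsewhere on the chromosome 0, 0 and 52 of 1906 windows of that width reached as much in the mutant libraries. In the equal-length lists the same window was covered at 3.81%, 14.9% and 14.02% in mutant replicates 1, 2 and 3 and at 0.784%, 0% and 0.0755% in control replicates 1, 2 and 3. The means were 10.9% ± 6.18 and 0.286% ± 0.432 (SD, n = 3 each). This difference follows the choice of the locus, which was made on peaks of these same lists. No other window of this width reached the equal-length cover of any mutant library. Without the highest 1% of peaks the difference between the means fell from 10.6 to 2.30 percentage points.

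**Figure D4:**
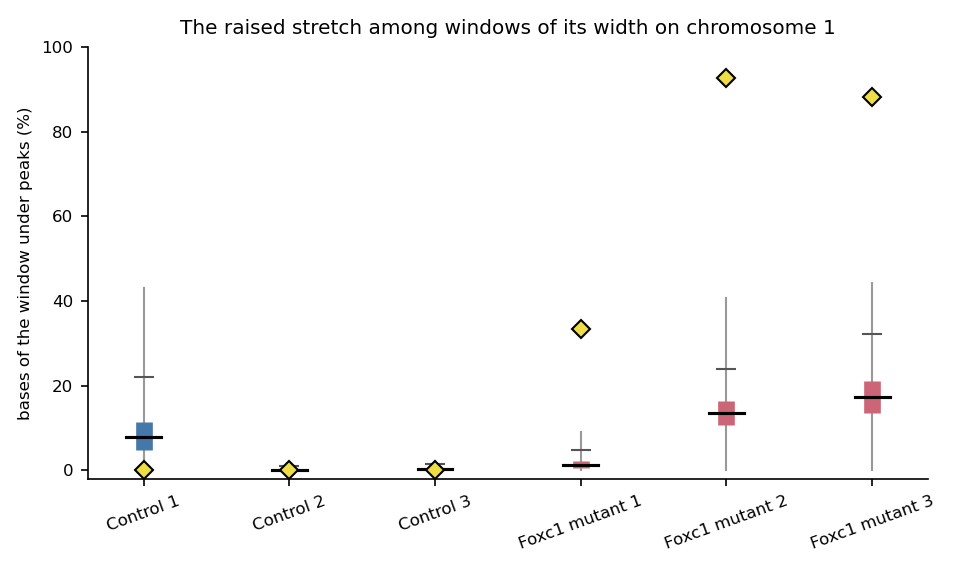
Percent of bases under peaks of the full lists in the common stretch (yellow diamonds) and in the 19209 other windows of its width on chromosome 1. Thin lines run from the lowest to the highest window, thick bars from the 25th to the 75th percentile, black ticks mark the median and grey ticks the 99th percentile. The diamonds of the 3 mutant libraries lie above every other window, and those of the control libraries at 0%.

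An empty region of this width was uncommon in control replicate 1 but not in the other control libraries. Its nearest peaks lay at 88195321 on the left and 88358148 on the right, an empty span of 162.8 kb against a median gap of 18.2 kb, and 19 of its 6598 gaps on the chromosome were as wide. Of the other windows, 3.19% were empty in control replicate 1, but 64.6% in control replicate 2 and 31.9% in control replicate 3, so in those short lists an empty stretch is no sign of a lower level. Windows empty in all 3 control full lists were 0.583% of the 19209, and 0.51% had a peak in all 3 mutant libraries and in no control. In the equal-length lists these shares were 27.4% and 1.68%. Being empty in control and called in mutant libraries was thus more frequent among windows than a cover as high as here. That cover was reached in 0 other windows, which unlike the stretch were not fitted to peaks.

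The mutant libraries were covered at the same bases where replicate 1 had peaks. Of the common stretch, 29.9% lay under peaks of all 3 mutant full lists, and this was 89.2% of the bases covered in mutant replicate 1. The product of the 3 covers is 27.3%, so with replicates 2 and 3 covering nearly everything the peaks of replicate 1 could hardly fall elsewhere. Replicates 2 and 3 together shared 84.4% of the stretch. Among the other windows of this width the share common to the 3 lists had a median of 0% and a maximum of 4.03%. Mutant replicate 3 had a single tallest peak, with its highest signal at 88222055, in the gap between the shared 3' end and Mroh2a. The other mutant libraries had ties. Peaks of 7 steps began at 88212733, 88219163 and 88232675 in mutant replicate 1, and peaks of 16 steps at 88210965 and 88297854 in mutant replicate 2. Among tied peaks, the one of highest total signal peaked at 88221269 in replicate 1 and at 88213309 in replicate 2. Because of the ties, it cannot be said whether the tallest points coincided.

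Other genes of glucuronidation had few calls in the equal-length lists. The list held 26 genes, all found in the annotation: 13 other transferases, the genes that supply UDP-glucuronic acid, those that remove or export glucuronides, and regulators of Ugt1a genes. Of the 26, 0 were called in all 3 mutant and no control library in the equal-length lists, where 0.178% of all genes were, and 0 in the full lists, where 8.02% were. At these shares a list of this size would hold few such genes or none, so the counts do not set it apart. In the equal-length lists 14 of the 26 were called in no library. In control replicates 1, 2 and 3, 4 were called in each (15.4%), against 14%, 6.65% and 6.43% of all protein-coding genes. In mutant replicates 1, 2 and 3, 1, 1 and 2 were called (3.85%, 3.85% and 7.69%), against 8.13%, 7.34% and 10.4% of all genes. The list was not tested.

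Ugt8a, which makes galactosylceramide of myelin rather than glucuronides, had calls of 12 steps in control replicate 1, 2 steps in control replicate 2 and 4 steps in mutant replicate 1. Ugt2b37, a member of the related Ugt2b family, had a call of 8 steps in mutant replicate 2 and of 2 steps in control replicate 2. Ugdh, the enzyme that makes UDP-glucuronic acid, was called in control replicates 2 and 3, at 2 steps in each. Nr1i2, the pregnane X receptor, was called in control replicate 3 alone (3 steps), and Ahr, the aryl hydrocarbon receptor, in no equal-length list.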

How the data were processed

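Peak lists of 6 Myc tag CUT&RUN libraries were used as deposited. SEACR and the build mm10 are named in the submitters' processing notes. Peak-calling settings, the SEACR version, scaling, the aligner, read filters and any use of isotype libraries were not given in the sources used here. Columns 4 and 5 of each deposited list hold the total and the max signal of a peak, in the authors' own unit. Max signals below 100 steps were whole multiples of 1 step within 0.01. The number of reads is not given, so the depth is unknown. Peaks on 21 chromosomes were kept (0 or 1 left out per library). Groups and replicate numbers came from the titles.

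Genes came from RefSeq (GRCm38.p6), where all 10 symbols were found; exon boundaries were not used. A gene was called where a peak overlapped by 1 bp a window of 5 kb around either end. Stretches chained equal-length peaks up to 25 kb apart. Windows on chromosome 1 were placed every 10 kb (94.7 kb wide) or 100 kb (600 kb wide). Half-sites were searched in the 250 bases before each transcript start; for Mroh2a 29 of these lie past the annotated gene start and are not printed. The difference in height between groups could not be computed, because no control library had a peak in the stretch. Genes named besides the 10 are all other protein-coding genes touching the window and, of the glucuronidation list, those called in 2 or more equal-length lists and Ugdh, Ahr and Nr1i2. The genes and lists were chosen with earlier results of these data known. Edge profiles, segments and windows across all chromosomes were added after the peaks had been seen. Scripts ran in Python 3.11.15 with numpy 2.4.6 and pandas 2.3.3, and stretch edges, steps and gene calls were tested on simulated data.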

Additional observations from a re-analysis of the deposited data

How the results depend on the processing

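No paired analysis was possible because no result comes from a test and the labels do not say that replicate numbers pair libraries. Of 43 recomputed values, 29 stayed within the limits given below and 14 moved beyond them. Some of the 29 were fixed or bounded in advance, as given below. A change of direction was seen in 0, but counts, widths and shared parts cannot change direction. The difference in cover follows the contrast on which the locus was selected. Without single libraries, the count of called genes was 10 in every case. That was fixed in advance, since leaving out a library only loosens the call and 10 is the maximum. These 6 values are among the 29. The difference in cover of the 600 kb window then ran from 8.63 to 14.2 percentage points (10.6 with all). The width ran from 97.2 to 99.8 kb and the log2 height from 1.40 to 2.16. The shared part of the stretch ran from 31.5% to 84.4%, the last without mutant replicate 1. Its limit was the SD of the cover between the mutant libraries, 32.9 percentage points, around a value of 29.9%. No fall could exceed this limit, so the 4 values of the shared part within it could have moved beyond it only upward. The gene count was 1 with 50% overlap, 6 with 25 kb, 3 over whole spans and 0 without the highest 1% of peaks. The cover difference was 16.2 points with full lists and 2.30 without the highest 1%. The width was 82.4 kb with gaps of 10 kb, 109.8 kb with 50 kb, 88.3 kb with lists of 5934 peaks, 92.5 kb when ranked by max signal, and 232.0 kb from full-list peaks of at least 4 steps (97.7, 272 and 326 kb in mutant replicates 1, 2 and 3), as scattered peaks outside the stretch then join the chain in replicates 2 and 3. The log2 height was 0.77 against the 99th percentile and 0.78 for the median peak. The remaining alternatives stayed within 1 SD of the mutant or group values, or within 1.5 times the count. Depth is unknown, and short control lists limit what an empty region shows.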
